A study of Mus musculus with 22 samples.

Results

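Primary hepatocytes of C57Bl6 mice exposed to 10 µM cyclosporin A (CsA) for 24 h were compared with cells that received 0.5% DMSO for the same time. The members were the 3 arrays whose columns in the deposited value table are titled with that dose and time, and the 5 DMSO arrays titled with 24 h, so 8 of the 22 arrays of the series. The other arrays held 50 µM CsA at 24 h (2 arrays), 10 µM and 50 µM CsA at 48 h (3 arrays each) and DMSO at 48 h (6 arrays). Each array also belongs to a control series. The 3 CsA arrays compared here and DMSO replicates 1, 4 and 6 belong to series IC20-48h. DMSO replicates 3 and 5 belong to series IC20-24h, as do the 50 µM arrays. Each sample was total RNA hybridised to a single-colour Agilent mouse microRNA array, and the labels call the samples biological replicates from experiments numbered 1 to 3. CsA replicates 1, 2 and 3 belong to experiments 1, 2 and 3. DMSO replicate 1 belongs to experiment 1, replicates 3 and 4 to experiment 2, and replicates 5 and 6 to experiment 3. The 5 DMSO arrays thus come from 3 experiments, and the main fit treats them as independent. The labels do not say whether these experiments used separate animals, so p-values measure the spread between samples within groups, pooled over all 22 arrays. A cultured hepatocyte lacks most of the cells that surround it in the liver. The labels give the 0.5% DMSO for the control cells and do not say whether the CsA medium held the same share. A field of the labels speaks of HepG2 cells, a human liver tumour line, whereas all other fields name primary mouse hepatocytes.

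Cyclosporin A binds cyclophilin and blocks calcineurin, a phosphatase that activates NFAT transcription factors, and it is used against graft rejection; in the liver it can impair bile flow. MicroRNAs (miRNAs) are short RNAs that guide Argonaute proteins to messenger RNAs, mostly by pairing of the seed, bases 2 to 8 from their 5′ end, and lower the output of those messages. Hepatocytes are dominated by miR-122, which acts in cholesterol and fatty acid metabolism.

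The sequences below are those of some of the miRNAs described later, from RefSeq (build GRCm38.p6), written 5′ to 3′ with the seed in capitals. The first 3 are made from 1 cluster on chromosome 6, minus strand, where their mature sequences span 3771 bp; among the 7 seed positions, miR-182-5p and miR-96-5p have 6 alike, and so do miR-183-5p and miR-96-5p.
miR-182-5p, chr6:30165962-30165986: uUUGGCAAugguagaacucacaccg
miR-96-5p, chr6:30169506-30169528: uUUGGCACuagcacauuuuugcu
miR-183-5p, chr6:30169711-30169732: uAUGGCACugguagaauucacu

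The next pair comes from the miR-212/132 locus on chromosome 11, plus strand, whose transcription responds to the factor CREB. The 2 share all 7 seed bases, and their mature sequences span 302 bp.
miR-212-3p, chr11:75173443-75173464: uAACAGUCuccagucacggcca
miR-132-3p, chr11:75173723-75173744: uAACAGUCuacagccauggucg

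The last 4 are shown for a stretch of sequence in common (miR-5100 and miR-3968) or for arrays that did not overlap between the groups (miR-877-5p and miR-500-3p). miR-5100 and miR-3968 have the 9 letters CGAAUCCCA in common, the longest run that they share. Only these 2 of the 1679 mature names of the RefSeq table hold it (0.119%). As the run was defined by this pair, that share is no measure of a link between them.
miR-5100, chr11:60728698-60728718, plus strand: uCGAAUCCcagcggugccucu
miR-3968, chr11:115447969-115447989, minus strand: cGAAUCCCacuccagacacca
miR-877-5p, chr17:35960795-35960814, minus strand: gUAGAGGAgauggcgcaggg
miR-500-3p, chrX:7237695-7237716, minus strand: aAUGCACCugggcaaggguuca

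Before the values, the naming of the arrays needs stating. Of the 8 arrays, only CsA replicate 1 and DMSO replicate 1 are filed under the sample whose value-table column they match. CsA replicates 2 and 3 are the arrays filed under 50 µM CsA at 24 h, and DMSO replicates 3 and 4, and 5 and 6, are filed under each other's names. Each column matched 1 array with a rank correlation of 1, and no other array above 0.968. All values here follow the columns, and with the filed names in their place 0 miRNAs were called and 21 had an unadjusted p under 0.05. Over the 8 arrays the 75th percentile of signal used for scaling ran from 188 to 373, and 208 to 271 of the 1247 miRNAs on the array were well above background. DMSO replicate 6 stood apart: its median correlation with the other 7 was 0.935, against 0.965 to 0.980 for the others.

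After 24 h at 10 µM, no miRNA passed the test. Of 290 miRNAs tested with limma, 0 (0%) had an adjusted p under 0.05, and 16 (5.52%) had an unadjusted p under 0.05, of which 8 were higher (2.76%) and 8 lower (2.76%) in CsA. The median difference over all tested miRNAs was 0.00 on the log2 scale, with a 5th percentile of -0.50 and a 95th of 0.44. Differences were positive for 131 miRNAs and negative for 138, and 21 lay at the signal floor (-4.41) on all 8 arrays. More than 2-fold separated the group means of 7 miRNAs, 2 higher and 5 lower in CsA.

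**Figure D1:**
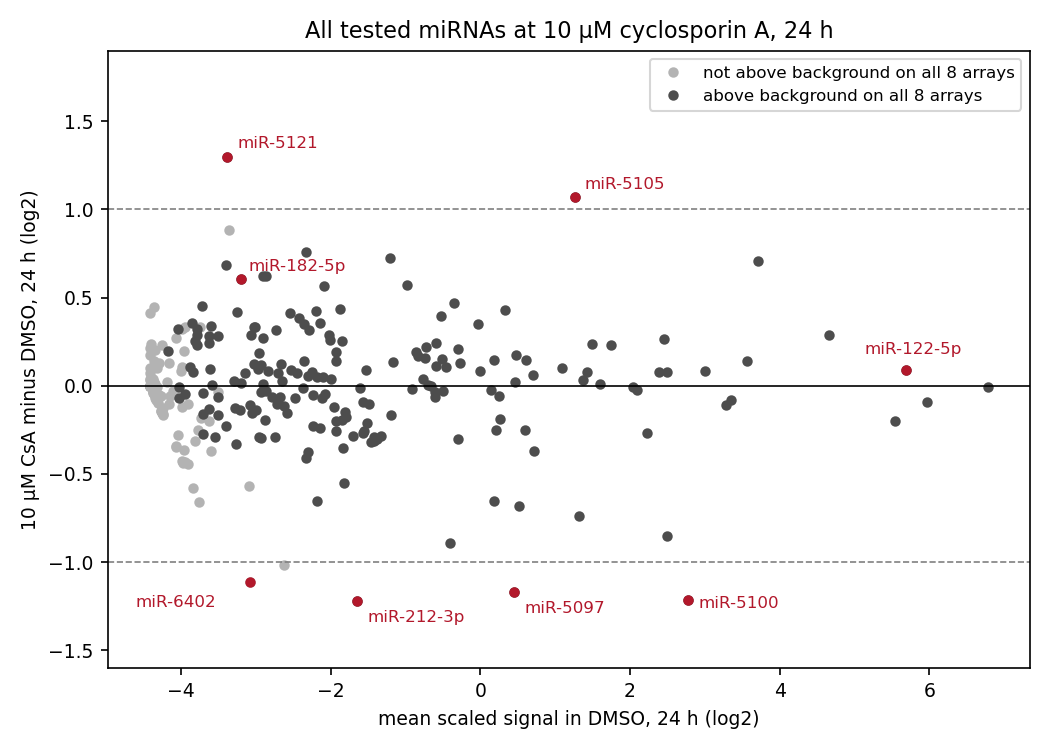
Difference between 10 µM CsA (3 arrays) and DMSO (5 arrays) at 24 h on the log2 scale (vertical axis) against the mean scaled log2 signal in DMSO (horizontal axis), 1 point for each of the 290 tested miRNAs. Dark points are the miRNAs above background on all 8 arrays, red points are named, dashed lines mark 2-fold, and most points lie within -0.50 and 0.44.

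The arrays left room for moderate differences. Among the 189 miRNAs above background on all 8 arrays the median SE of a difference was 0.25, and for 148 of them (78.3%) the 95% interval lay within 2-fold either way. The same held for 232 of all 290 tested (80%), a group in which values at the floor vary less. On all 8 arrays 935 miRNAs were not well above background, so nothing is known of their differences. No miRNA (0) was above background on all 3 CsA arrays and on none of the DMSO arrays. The reverse held for miR-3091-5p, singled out after its values were seen, which was above background on all 5 DMSO arrays and 0 of the 3 CsA arrays; its signal was too close to the floor for a fold.

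Arrays of the groups did not overlap for 8 of the 290 (2.76%), 2 of them higher in CsA (0.69%) and 6 lower (2.07%): miR-182-5p and miR-500-3p were higher on every CsA array than on any DMSO array, and miR-5100, miR-877-5p, miR-1198-5p, miR-874-3p, miR-1904 and miR-5103 were lower. Of these, miR-500-3p, miR-874-3p, miR-1904 and miR-5103 are named only because they separated, chosen after their values were seen. The differences of the last 3 were -0.28 ± 0.21 (SE), -0.29 ± 0.27 and -0.32 ± 0.35. The count of 8 was 2 with the scaling percentile taken over all probes and 5 with quantile normalization. It was 13 against the DMSO arrays of the same control series or without DMSO replicate 3, 19 without CsA replicate 2 and 26 without CsA replicate 3.

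The lowest p belonged to miR-182-5p, which represses FOXO transcription factors in several cell types. Its scaled log2 signal was -2.59, -2.82 and -2.40 on CsA replicates 1 to 3. On DMSO replicates 1, 3, 4, 5 and 6 it was -3.37, -2.91, -3.17, -3.10 and -3.48. All 3 CsA arrays lay above all 5 DMSO arrays, with a gap of less than 0.1 between CsA replicate 2 and DMSO replicate 3. The means were -2.60 ± 0.21 (SD, n = 3) and -3.21 ± 0.22 (SD, n = 5), a difference of 0.60 ± 0.15 (SE) or 1.52-fold with a limma adjusted p of 0.234. Within experiments 1, 2 and 3 the difference was 0.78, 0.22 and 0.89. It was 0.32 within slide 1 and 0.70 within slide 2, the slides that held both groups. Of the CsA arrays, slide 1 held replicate 2 alone. The difference of miR-182-5p was 0.30 with the mean of all its probes in place of the brightest. Over the alternatives it stayed positive, from 0.25 with normexp to 0.78 in the value table. Its adjusted p ran from 0.0581, against the DMSO arrays of the same control series, to 1 without the filter on dim probes, and passed the threshold under none of them.

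Its cluster partners differed in the same direction with more overlap. miR-183-5p measured -3.65, -3.52 and -3.30 on the CsA arrays and -3.82, -3.52, -3.88, -3.91 and -4.13 on the DMSO arrays. DMSO replicate 3 reached the middle of the CsA range, and the difference was 0.36 ± 0.14 (limma adjusted p = 0.648). miR-96-5p measured -2.65, -3.30 and -2.56 on the CsA arrays and -3.49, -3.25, -3.16, -3.08 and -3.30 on the DMSO arrays. CsA replicate 2 lay within the DMSO range, and the difference was 0.42 ± 0.21 (limma adjusted p = 0.917), with -0.18 within slide 1 and 0.67 within slide 2. The opposite strands of the 3 hairpins exceeded background on 0 arrays. The levels of these members relative to one another cannot be read from different probes.

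miR-212-3p, the sister of miR-132-3p, had the largest negative difference. It measured -2.78, -2.32 and -3.51 on the CsA arrays. The DMSO arrays gave -2.39, -2.85, -0.97, -1.09 and -0.94. DMSO replicates 4, 5 and 6 were high, and DMSO replicates 1 and 3 lay within the CsA range. The difference of -1.22 ± 0.45 (limma adjusted p = 0.648) was -0.39, -0.41 and -2.49 within experiments 1, 2 and 3. The other 3 mature miRNAs of the locus on the array, miR-132-3p included, exceeded background on 0 of the 22 arrays.

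The same 3 DMSO arrays were high for miR-5100, miR-3968 and miR-5097. miR-5100 measured 1.51, 1.68 and 1.48 on the CsA arrays and 1.88, 1.97, 2.97, 3.10 and 3.94 on the DMSO arrays. All CsA arrays lay below all DMSO arrays, with DMSO replicates 1 and 3 closest, and the difference was -1.21 ± 0.43 (adjusted p = 0.648). miR-3968 measured 1.44, 2.42 and 1.07 on the CsA arrays and 1.23, 1.30, 2.90, 3.09 and 3.96 on the DMSO arrays. CsA replicate 2 lay between the DMSO arrays here, and the difference was -0.85 ± 0.56 (adjusted p = 1). miR-5097 measured -0.52, -0.77 and -0.86 in CsA and -0.42, -0.79, 0.89, 1.05 and 1.55 in DMSO, a difference of -1.17 ± 0.49 (adjusted p = 0.648). The groups overlapped through DMSO replicate 3. The 75th percentile of signal was 340 to 373 on DMSO replicates 4, 5 and 6 and 188 to 311 on the other 5 arrays, and its part in these differences was not tested.

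Close to background, miR-6402 and miR-487b-3p showed a like order of arrays. miR-6402 was at or near the floor on the CsA arrays (-4.41, -3.76 and -4.41) and measured -3.96, -4.13, -2.71, -2.65 and -1.96 on the DMSO arrays. It exceeded background on 1 CsA array and on all 5 DMSO arrays, so its difference of -1.11 ± 0.39 (adjusted p = 0.648) rests partly on the floor. miR-487b-3p, of the imprinted Dlk1-Dio3 region, exceeded background on 1 CsA array and 3 DMSO arrays, with a difference of -0.44 ± 0.17. miR-1198-5p, above background on 1 CsA array and 4 DMSO arrays, was set to the floor on all 3 CsA arrays and lay between -4.40 and -3.43 in DMSO. Its lack of overlap and its difference of -0.58 therefore depend on where the floor lies.

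**Figure D2:**
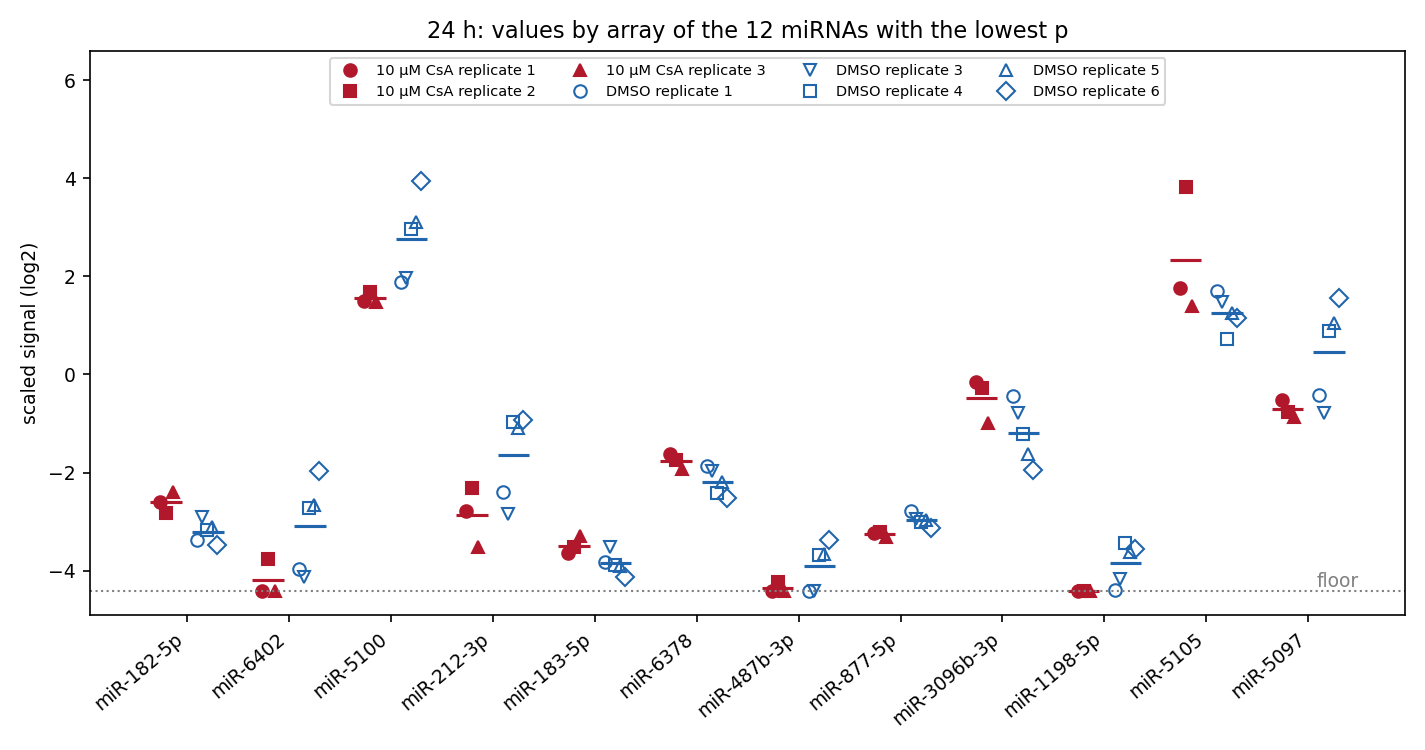
Scaled log2 signal on each of the 8 arrays at 24 h (vertical axis) for the 12 miRNAs with the lowest p (horizontal axis); filled red symbols are CsA arrays, open blue symbols DMSO arrays, the shape marks the replicate as in the legend, bars are group means and the dotted line is the floor at -4.41. miR-182-5p, miR-5100, miR-877-5p and miR-1198-5p do not overlap between the groups, and CsA replicate 2 alone is high for miR-5105 (3.83).

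The other miRNAs of lowest p or without overlap included some with smaller differences. miR-877-5p, which is spliced out of an intron of Abcf1 as a mirtron, measured -3.24, -3.21 and -3.32 in CsA and -2.78, -2.95, -3.005, -2.97 and -3.12 in DMSO. Every CsA array was below every DMSO array, with a difference of -0.29 ± 0.12 (adjusted p = 0.648). This difference was -0.46, -0.24 and -0.28 within the 3 experiments. miR-500-3p measured -3.14, -3.31 and -3.35 in CsA and -3.38, -3.53, -3.70, -3.62 and -3.79 in DMSO. The order was reversed, every CsA array above every DMSO array, and the difference was 0.34 ± 0.15 (adjusted p = 0.648), with 0.24, 0.31 and 0.36 within the experiments. miR-6378 overlapped only through CsA replicate 3 and DMSO replicate 1, at -1.94 and -1.86, and differed by 0.43 ± 0.16. miR-3096b-3p ranged from -0.99 to -0.16 in CsA and from -1.95 to -0.43 in DMSO, a difference of 0.72 ± 0.29.

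CsA replicate 2 was the highest of the 8 arrays for miR-5105, miR-5121, miR-714 and miR-6243; for miR-3096b-3p it was not, and the difference without it was 0.62. miR-5105 measured 1.76, 3.83 and 1.39 on the CsA arrays and 1.70, 1.47, 0.72, 1.25 and 1.15 on the DMSO arrays. CsA replicate 2 was far above all others, and the difference of 1.07 ± 0.44 (adjusted p = 0.648) became 0.32 without it. miR-5121 measured -2.21, -0.60 and -3.44 in CsA and -2.76, -2.41, -3.60, -4.11 and -4.05 in DMSO. Again CsA replicate 2 was the highest, and 1.30 ± 0.55 became 0.56 without it. The remaining 2 of this kind, miR-714 and miR-6243, were -0.46 and 5.18 on CsA replicate 2, against at most -1.91 and 4.24 on the other 7 arrays. CsA replicate 2 is an array filed under the 50 µM name, and miR-5105 measured 3.82 and 3.79 on the 2 arrays whose columns are titled 50 µM. CsA replicate 3 is filed under the 50 µM name too and measured 1.39 for miR-5105. With the filed names the differences of miR-5105, miR-5121 and miR-714 were 1.87, 1.74 and 0.66. What sets CsA replicate 2 apart was not tested.

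The hepatocyte miRNAs were strongly present and differed little. Of the 12 hepatocyte-enriched miRNAs on the array 11 were tested, and these 11 were above background on all 8 arrays. Their median difference was 0.08, with 8 positive and 3 negative, beside 0.00 over all tested miRNAs. miR-122-5p measured 5.90, 5.71 and 5.72 in CsA and 5.85, 5.91, 5.51, 5.72 and 5.45 in DMSO. The ranges overlapped, and the difference of 0.09 ± 0.11 had a 95% interval from -0.15 to 0.32. miR-122-3p, from the other arm of the same hairpin and also singled out after its values were seen, differed by 0.38 ± 0.17 (adjusted p = 0.648). miR-192-5p, which p53 induces, differed by -0.01 ± 0.15, and miR-148a-3p, which targets the LDL receptor message, by 0.35 ± 0.18. In such cultures fewer cells of a type and less RNA per cell cannot be told apart.

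Markers of other liver cells were few. Among 6 leukocyte and macrophage miRNAs only miR-155-5p was tested, with a difference of -0.10 ± 0.18; the other 5, among them miR-142-3p and miR-223-3p, were above background on 0 of the 8 arrays. The erythroid pair miR-451a and miR-144-3p and the 5 miR-200 family members of bile duct and other epithelium were too dim to test. miR-126-3p, of endothelium, was above background on all 8 arrays and ranged from -3.37 to -2.11 in CsA and from -3.35 to -2.48 in DMSO. miR-145a-5p, of stellate and smooth muscle cells, exceeded background on 1 CsA array and 3 DMSO arrays, and the other 4 mesenchymal markers were not tested.

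Among the miRNA families, no tested member was called in any list. The 9 let-7 miRNAs, which share the seed GAGGUAG and restrain growth-promoting messages, all had positive differences from 0.01 to 0.33, with a median of 0.10. By array the let-7 median relative to the DMSO mean was 0.33, -0.06 and 0.07 in CsA and 0.23, 0.43, -0.13, -0.06 and -0.46 in DMSO. The arrays of both groups were thus spread over the same range, with DMSO replicate 6 lowest. The miR-17/miR-92a and paralogous clusters, which MYC drives in dividing cells, had 10 positive and 1 negative of 11 tested and a median of 0.29. Their medians by array were 0.67, 0.31 and -0.13 in CsA and 0.50, 0.35, 0.11, -0.27 and -0.63 in DMSO. Both groups ran from low to high, and the highest members were miR-20a-5p at 0.57 ± 0.35 and miR-92a-3p at 0.43 ± 0.38.

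Stress and metabolic lists with several tested miRNAs had medians from -0.01 to 0.19, beside 0.00 over all tested miRNAs. The 5 tested p53-responsive miRNAs had a median of -0.01, and miR-34a-5p, a direct p53 target, differed by 0.15 ± 0.29. The 6 tested miRNAs linked to endoplasmic reticulum stress had a median of 0.13, with 5 positive and 1 at the floor. The 3 tested miRNAs of NF-kB and inflammation had a median of 0.19, and miR-21a-5p, an abundant miRNA of stressed and growing cells, differed by 0.29 ± 0.17. The 11 tested miRNAs of lipid and cholesterol metabolism had 5 positive and 6 negative differences and a median of 0.00. miR-210-3p, which hypoxia-inducible factor drives, differed by -0.37 ± 0.28. Among the structural families, the miR-15/16 family had a median of 0.14, the miR-29 family 0.13, the miR-23/24/27 clusters 0.11 and the miR-30 family 0.08.

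The list that lay farthest below 0 with several members held the rodent miR-669, miR-467, miR-466 and miR-297 families, taken by name and not by locus; many are much alike in sequence and may share signal. Of 61 on the array 11 were tested, 10 were negative and 1 positive, and the median was -0.34. By array the median relative to the DMSO mean was 2.02 on DMSO replicate 6 and between -0.68 and -0.04 on the other 7 arrays. Without DMSO replicate 6 the list's median was 0.03. miR-467f, for example, measured -1.49 on that array and between -4.37 and -3.31 on the other 7, and miR-1187, a dinucleotide-repeat miRNA outside the list, measured 1.97 there and between -2.07 and 0.12 elsewhere.

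**Figure D3:**
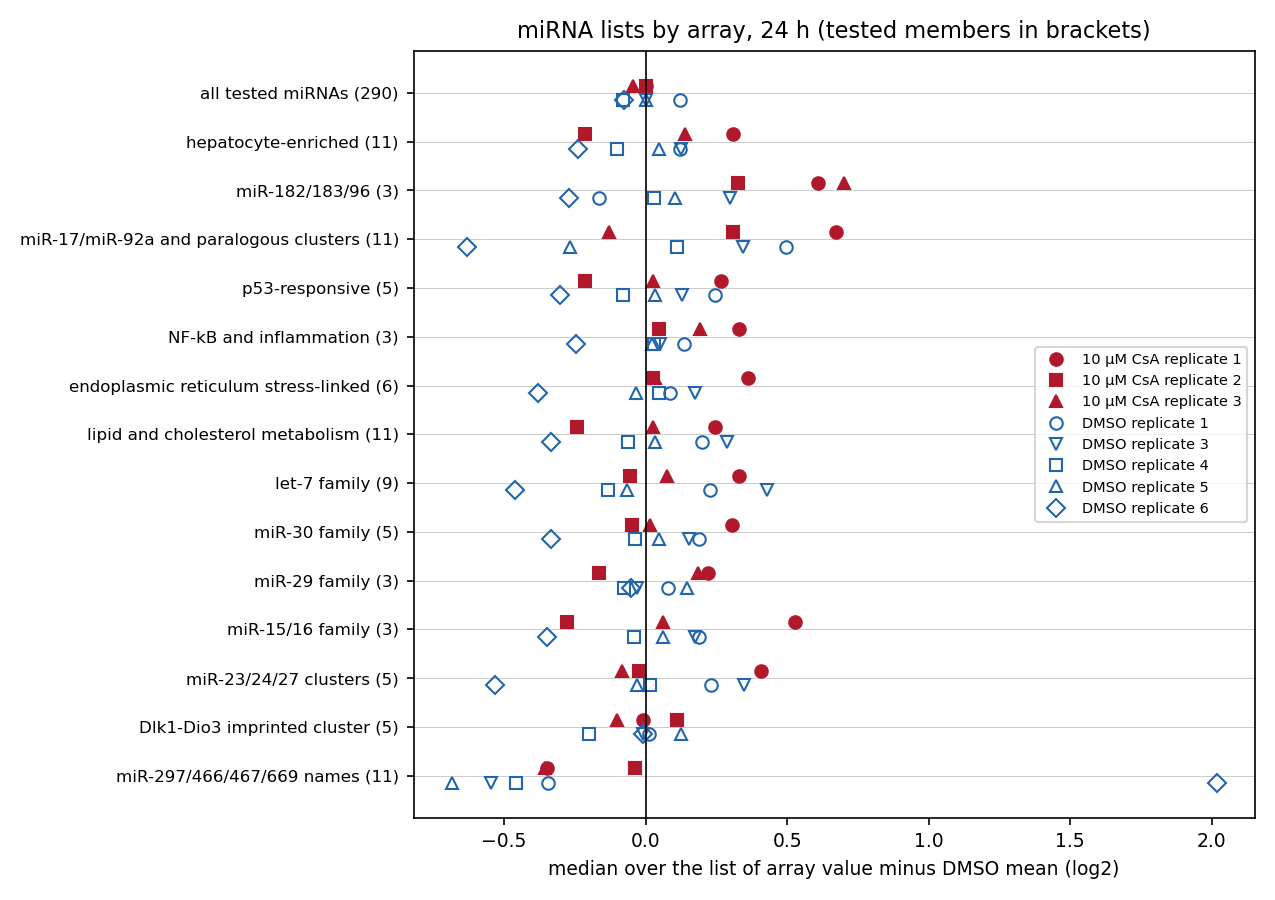
Median over the tested members of each miRNA list of the array's log2 signal minus the DMSO mean (horizontal axis), 1 symbol for each of the 8 arrays at 24 h, red filled for CsA and blue open for DMSO; the number of tested members is in brackets. CsA and DMSO arrays overlap in every list drawn except the miR-182-5p, miR-183-5p and miR-96-5p cluster. In that cluster the lowest CsA array lies at 0.33 and the highest DMSO array at 0.30. The lists were chosen with earlier results of these data known. DMSO replicate 6 lies at 2.02 for the list of miR-669, miR-467, miR-466 and miR-297 names.

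The other dose and time gave the setting for these values. At 50 µM and 24 h, against the same 5 DMSO arrays, 11 miRNAs (3.79%) rose and 0 fell, with 41 (14.1%) at an unadjusted p under 0.05. That count was 2 without replicate 2 and 1 without replicate 3 of 50 µM, fits in which the lone array left is assumed to vary like the other groups. It was 19 without DMSO replicate 3, 17 with the experiment number as a replicate block and 0 with the filed names. Over these 11 the median difference was 1.51 at 50 µM and 0.43 at 10 µM, where it ran from 0.00 to 1.07 with 10 positive and 1 at 0. At 10 and 50 µM, miR-5105 differed by 1.07 and 2.55, miR-6378 by 0.43 and 0.90, and miR-370-3p by 0.69 and 1.84. Without CsA replicate 2 of 10 µM, an array filed under the 50 µM name, the 10 µM value was 0.32 for miR-5105. It was 0.42 for miR-6378 and 0.08 for miR-370-3p. Over the 10 µM arrays the median of the 11 had an SD of 0.40. miR-494-3p differed by 0.23 and 0.92, and miR-770-3p and miR-5116, both near the floor, by 0.03 and 0.79 and by 0.00 and 0.49. The 2 comparisons share their controls, so these pairs of values are not independent.

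Set directly against each other at 24 h, the doses differed for 2 of 290 miRNAs (0.69%), both lower at 10 µM. At an unadjusted limma p under 0.05 there were 26 (8.97%). The 10 µM and the 50 µM arrays belong to different control series, so dose and control series cannot be told apart here. miR-770-3p, of the Dlk1-Dio3 region, measured -4.41, -4.29 and -4.41 at 10 µM and -3.59 and -3.64 at 50 µM. The groups did not overlap, but the share of all tested miRNAs without overlap between the doses was not counted. The limma adjusted p was 5.98e-06. miR-5116 was set to the floor on all 3 arrays of 10 µM, with 1 of them above background, and measured -3.98 and -3.87 at 50 µM (limma adjusted p = 0.0422). The sizes of both differences, -0.75 and -0.49, and their p-values depend on the floor, where arrays cannot vary. The count of 2 was 0 in the value table, with normexp, with the strict filter and with the filed names. It was 1 with the replicate block, the slide as a block, quantile normalization, the percentile over all probes or no filter, and without CsA replicate 1 or 3 of 10 µM or either array of 50 µM. For miR-182-5p the doses differed by 0.38, with a 95% interval from -0.01 to 0.77 (limma adjusted p = 0.616).

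At 48 h, with 6 DMSO arrays of its own, 10 µM CsA gave 3 calls of 290 (1.03%), 2 higher (0.69%) and 1 lower (0.345%); the count was 0 in the value table and 19 with the filed names. miR-182-5p rose by 0.82 ± 0.14 (limma adjusted p = 0.00689) and miR-183-5p by 0.66 ± 0.13 (limma adjusted p = 0.0152), whereas miR-221-3p, an antagonist of the cell cycle inhibitor p27, fell by 0.81 (limma adjusted p = 0.0181). miR-182-5p measured -2.39, -2.48 and -2.61 on the CsA arrays at 48 h and between -3.58 and -3.08 on the DMSO arrays. As at 24 h, the groups did not overlap, but the share of all tested miRNAs without overlap at 48 h was not counted. miR-96-5p differed by 0.74 ± 0.21 at 48 h (limma adjusted p = 0.131). At 24 h miR-221-3p measured -3.38, -3.82 and -3.69 in CsA and -3.17, -2.996, -3.54, -3.44 and -3.87 in DMSO, overlapping, with a difference of -0.23 ± 0.18.

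The change of the 10 µM effect with time was tested directly. The interaction of time and treatment was called for 0 of 290 miRNAs (0%), and 4 (1.38%) had an unadjusted p under 0.05. For miR-182-5p the 48 h difference exceeded the 24 h difference by 0.22 (95% interval from -0.22 to 0.66), and for miR-183-5p by 0.30 (from -0.10 to 0.70). For miR-221-3p it was lower by -0.58 (from -1.10 to -0.06, limma adjusted p = 1). At 50 µM and 48 h, 110 miRNAs (37.9%) were called, 80 higher (27.6%) and 30 lower (10.3%). The 80 had a median of 0.00 at 10 µM and 24 h, with 39 positive and 29 negative, and the 30 had a median of 0.00, with 16 positive and 14 negative. In that comparison miR-182-5p was among those lower, at -0.49 ± 0.14 (limma adjusted p = 0.0125).

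**Figure D4:**
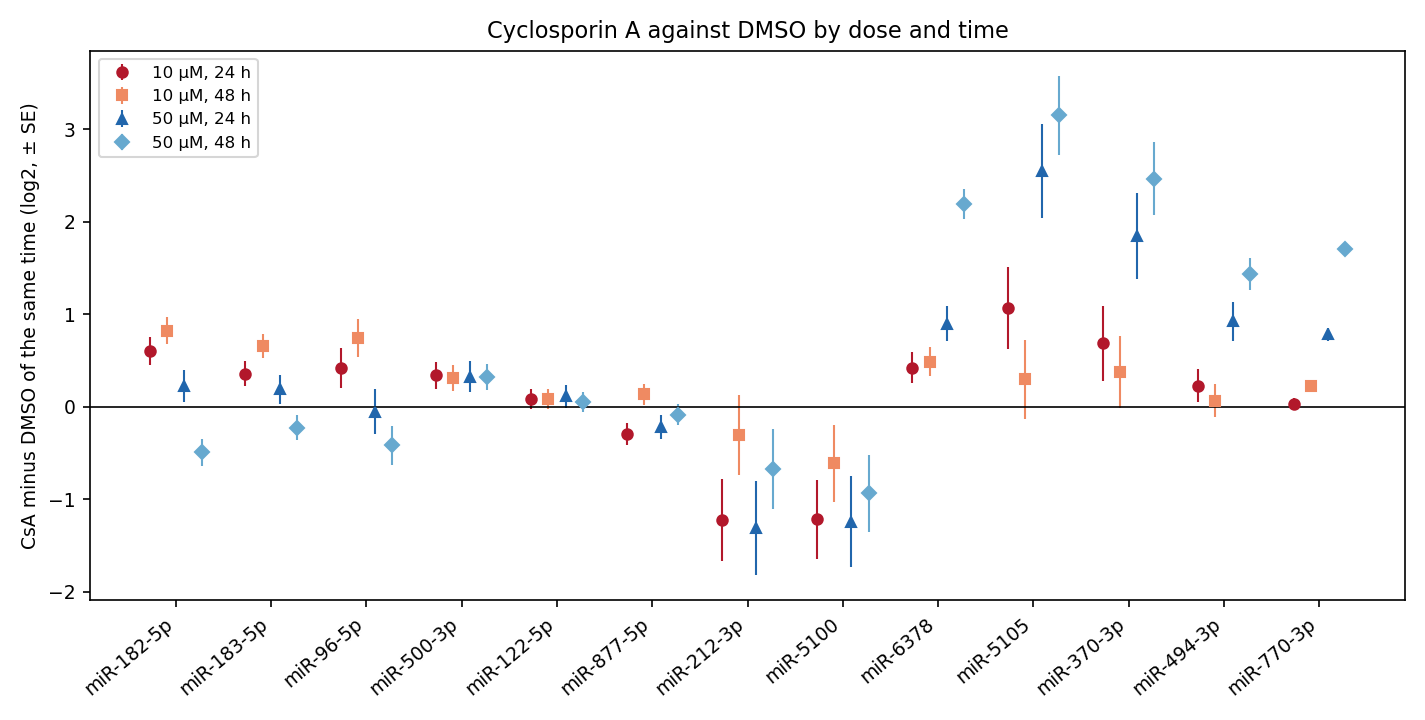
Difference between CsA and DMSO of the same time on the log2 scale with its SE (vertical axis) for 13 miRNAs, at 10 µM and 50 µM and at 24 h and 48 h (3, 3, 2 and 3 CsA arrays for 10 µM 24 h, 10 µM 48 h, 50 µM 24 h and 50 µM 48 h; 5 DMSO arrays at 24 h and 6 at 48 h). miR-182-5p lies at 0.60 and 0.82 at 10 µM and at -0.49 at 50 µM and 48 h, and miR-5105 lies at 1.07 at 10 µM and 24 h and 3.15 at 50 µM and 48 h.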

How the data were processed

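The authors deposited 1 spot-level scanner file per array and a value table of log2 intensity; the submitters' processing notes name R 2.15.2. Per the file headers, Feature Extraction 10.7.3.1 made the deposited processed signal, a background-corrected intensity. Quantile normalization of total gene signal (minimum 0.5) and log2 rebuilt the table, which served to match arrays to columns. The processed signal was averaged over a probe's spots that were neither control nor outlier. Each array was scaled to its 75th percentile, taken over 281 probes that exceeded background by the scanner software's flag on all 22 arrays, then floored at 0.0469 (the 5th percentile of signals above background) and put on a log2 scale. The brightest probe stood for a miRNA. Those above background on 3 or more arrays, 290 in number, were tested with limma 3.58.1 (R 4.3.3), 1 mean per group over 22 arrays in 6 groups, with Benjamini-Hochberg adjustment and calls under 0.05. The steps were tested on simulated data. Named miRNAs were the 12 lowest p, the 5 largest rises and falls above background on all 8 arrays, the 3 brightest of each list, the 5 brightest of all, the calls at 50 µM and 24 h, and the members of 3 clusters; others are marked as chosen later. Members and lists were chosen with earlier results of these data known. Sequences matched 230 of the 290. Other normalizations, filters, blocks, sample names and left-out arrays were tried. The number of arrays limits the precision.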

Additional observations from a re-analysis of the deposited data

Results flagged for a closer look

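Among 66 named miRNAs checked, 4 had a DMSO array at 24 h set apart from the other 4 (gap over range above 0.71). Chance flags about 1 in 20 groups, a rate that does not hold for values tied at the floor. DMSO replicate 6 was at -1.08 for miR-27b-3p, against -0.57 to -0.42 on the others, and at -1.04 for miR-466h-3p, against -4.09 to -3.27. DMSO replicate 4 was at 5.49 for miR-5109, against 5.99 to 6.17. DMSO replicate 3 was at -4.36 for miR-222-3p, with the others at the floor of -4.41, so this flag rests on the floor and a small gap. The test of the difference between the doses at 24 h called miR-770-3p (-0.75) and miR-5116 (-0.49). Their values at 10 µM were set wholly or mostly by the floor. The calls were 0 in the value table, with normexp, the strict filter or the filed names. Arrays of the doses also differ in control series.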

How the results depend on the processing

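The count of 0 calls at 10 µM and 24 h held under all 21 alternatives, with 11 to 24 miRNAs at an unadjusted limma p under 0.05. The 12 miRNAs of lowest p were chosen from these same arrays, so a kept sign is no separate support for them. Slide 1 held only replicate 2 of the CsA arrays. All 12 kept their sign, within slides 1 and 2 too. Of the 66 named miRNAs 34 kept it throughout, slides included, and 32 changed it or left 0 at least once. Of the 21 lists, whose medians were not taken within slides, 9 kept it. Deviations of samples of 1 experiment correlated over 0.1 in 4 of 5 pairs, with all 3 of the same control series among them. The other pair was at -0.31. Pairs of different experiments ran from -0.64 to 0.45, with values over 0.1 at 0.45, 0.40 and 0.103, so the pairing is not settled. The replicate block gave 0 calls and 22 unadjusted, 17 calls at 50 µM and 24 h, and 1 between the doses. The 8 miRNAs without overlap became 2 with the percentile over all probes, 13 with DMSO arrays of the same control series and 5 with quantile normalization, and 8 to 26 leaving out an array. The 232 intervals within 2-fold became 125 in the value table, 1179 of 1247 without the filter, 151 of 189 with the strict filter, and 201 to 235 leaving out an array. The filed names gave 0 calls at 50 µM and 24 h, 19 at 10 µM and 48 h, 1 at 50 µM and 48 h and 0 between the doses. Leaving out an array gave 1 to 19 calls at 50 µM and 24 h, chosen after seeing the data, as was a floor at the 1st percentile. The value table gave 0 calls at 10 µM and 48 h. The 2 calls between the doses became 1 with the percentile over all probes, no filter, quantile normalization or slide as a block, and 0 with the value table, normexp or the strict filter, and 1 to 2 leaving out an array. The causes were not tested. Signal near background limits the dim miRNAs, for which the floor compresses differences. With the mean of all probes in place of the brightest, miR-182-5p, miR-183-5p and miR-6378 differed by 0.30, 0.18 and 0.21. By the same mean, miR-6402, miR-1198-5p and miR-487b-3p differed by -0.56, -0.29 and -0.22. The other miRNAs of lowest p moved less, such as miR-5100 at -1.24 and miR-5105 at 0.96.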
